A study of Mus musculus with 24 samples.

Results

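Imprinted genes are transcribed mainly from a single parental copy, and the copies are told apart by marks set in the egg or sperm. A list of 33 mouse imprinted genes was followed in naive CD4 T cells with and without TRIM28, of which 29 could be read on a probe set of their own among the 22180 genes tested. Members were found by gene symbol in the array annotation, and for a gene with more than 1 probe set the brightest by its mean over the arrays stood for it. H19 and Snrpn were present only on probe sets shared with another gene and are described apart, and Zrsr1 and Slc22a3 were not among the listed symbols. Of the 29 measured genes, 20 are known to be expressed from the paternal copy and 8 from the maternal copy, while the parental copy in use at Gnas differs by transcript. The list was made from known imprinted genes and not from measured values, although earlier results of these data were known when it was chosen.

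The study hybridised total RNA of sorted naive CD4 T cells to Affymetrix arrays, with cells of TRIM28KO mice (here KO) set against those of their wild-type littermates (here WT). Cells were taken before stimulation, here called 0 h, or after 4, 24 or 72 h on plate-bound anti-CD3 with soluble anti-CD28, the antibodies that engage the T cell receptor and its co-receptor. The 8 groups of genotype and time held 3 arrays each, 24 in all. All cells had passed magnetic enrichment and a flow cytometry sort. Not given in the sources used here are the strain, the age of the mice, the sort gate, and the allele or Cre driver behind the knockout. The labels also leave unsaid whether arrays of a group came from separate mice, so p-values measure only the spread between these samples. By the sex-linked genes given below, array 3 of each group was male and arrays 1 and 2 were not. Array 3 was thus no technical repeat of the others, while the spread between arrays 1 and 2 may be technical.

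TRIM28 (KAP1) is a scaffold protein that KRAB zinc finger proteins bring to DNA, where it gathers the histone methyltransferase SETDB1, HP1 proteins and DNA methyltransferases. At imprinting control regions, ZFP57 and ZFP445 bind the methylated copy and recruit TRIM28, and this protects the parental mark when the rest of the embryonic genome is demethylated. In early embryos and embryonic stem cells, loss of TRIM28 or ZFP57 is known to disturb imprinted expression. ZFP57 recognises the hexamer TGCCGC when its CG is methylated. Arrays read the RNA of both parental copies together, so the values below give total levels and not the copy of origin.

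Promoter windows of the 3 genes whose level differed between genotypes at one or more times, and of Mest, a paternally expressed hydrolase gene that stayed at the floor, are printed to show the sequence at their starts. Each is a RefSeq window of 300 bases from GRCm38.p6, covering 250 bases before the annotated start and the first 50 transcribed bases, 5′ to 3′ on the gene's strand. Capitals mark TGCCGC or its reverse complement GCGGCA, and a window without capitals holds neither. The windows are Plagl1 at chr10:13090582-13090881 on the plus strand, Nnat at chr2:157559828-157560127 on the plus strand, Igf2r at chr17:12769657-12769956 on the minus strand, and the second of 3 annotated Mest starts at chr6:30737800-30738099 on the plus strand.
Plagl1: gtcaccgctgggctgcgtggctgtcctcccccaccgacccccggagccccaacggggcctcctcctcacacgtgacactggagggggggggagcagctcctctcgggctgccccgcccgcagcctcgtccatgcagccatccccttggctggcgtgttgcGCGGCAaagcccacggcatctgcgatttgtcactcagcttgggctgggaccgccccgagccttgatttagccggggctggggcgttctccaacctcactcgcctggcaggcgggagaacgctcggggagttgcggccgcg
Nnat: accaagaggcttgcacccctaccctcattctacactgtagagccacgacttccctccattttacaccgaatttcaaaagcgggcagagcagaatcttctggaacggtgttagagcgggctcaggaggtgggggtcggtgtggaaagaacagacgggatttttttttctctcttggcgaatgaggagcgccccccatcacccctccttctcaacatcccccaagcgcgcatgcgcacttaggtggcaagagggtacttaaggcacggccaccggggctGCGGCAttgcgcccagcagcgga
Igf2r: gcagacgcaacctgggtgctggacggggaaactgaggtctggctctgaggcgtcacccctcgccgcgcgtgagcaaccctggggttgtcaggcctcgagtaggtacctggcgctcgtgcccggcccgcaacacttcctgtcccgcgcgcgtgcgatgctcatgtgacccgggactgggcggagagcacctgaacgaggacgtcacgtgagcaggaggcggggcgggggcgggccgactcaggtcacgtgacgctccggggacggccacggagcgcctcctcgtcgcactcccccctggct
Mest: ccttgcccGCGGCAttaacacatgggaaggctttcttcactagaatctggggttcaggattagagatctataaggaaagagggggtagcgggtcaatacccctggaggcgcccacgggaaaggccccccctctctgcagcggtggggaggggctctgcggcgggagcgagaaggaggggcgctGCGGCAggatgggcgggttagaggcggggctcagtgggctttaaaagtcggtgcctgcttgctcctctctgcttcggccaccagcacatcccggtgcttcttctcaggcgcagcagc
The Plagl1 and Nnat windows held the hexamer once each, the Mest window held it 2 times, and the Igf2r window did not hold it. The search was chosen after the levels were known. In all, 27 of the 33 listed genes had a window, and 12 of their 41 windows (29.3%) held the hexamer on either strand, against 11.6% of the 32851 windows of all genes. Windows of the same gene can overlap: Mest windows 2 and 3, starting at 30737800 and 30737803, are both among the 12. By gene, 11 of the 27 had the hexamer in a window. The hexamer itself holds a CG, and the windows compared were not matched for CG count, so these shares show no enrichment of ZFP57 sites. The Plagl1 window also counted 26 CG dinucleotides, the Nnat window 17, the Igf2r window 34 and the Mest window 17, against a median of 7 over all windows. A letter match is no bound site, and imprinting control regions can lie outside these windows.

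Facts of the whole series that touch these genes were as follows. Trim28 was lower in KO at every time and its arrays never overlapped, with WT means between 7.78 and 9.19 and KO means between 5.16 and 5.61 on the log2 scale, changes of -2.62 to -3.58 (limma, Benjamini-Hochberg adjusted p between 2.53e-16 and 1.17e-13). Where the Trim28 probes lie relative to the deleted part was not known. Median array values lay between 3.59 and 3.76, and no 2 arrays held identical values. Arrays numbered 3 carried male levels of Y-linked genes and Xist in all 8 groups (Eif2s3y between 8 and 8.69, against 2.14 to 2.75 in arrays numbered 1 and 2), so the calls named below that were lost without them are given with their value. The mean of the 8 measured T cell markers lay between 9.9 and 10.39 in every array, with all 8 above the floor in every group. It was 10.21 to 10.27 in KO against 10.36 to 10.39 in WT arrays at 0 h, and 9.97 to 10.1 against 9.9 to 9.91 at 72 h. Singly, 6 of the 8 passed between genotypes at one or more times (33.5% of genes above the floor in all 8 groups did). At 24 h 4 were higher and 1 lower in KO (11.3% of all genes passed in either direction). The mean of 9 B cell markers was 4.18 to 4.97 in KO arrays and 3.67 to 4.52 in WT arrays at 0 h, and 3.51 to 4.05 against 3.33 to 3.47 at 72 h. Singly, 2 of the 9 passed at 0 h and 7 in the average over times, all higher in KO (2.34% and 9.8% of all genes passed in either direction). The mean of 10 myeloid markers was 3.85 to 4.53 in KO arrays against 3.52 to 3.71 in WT arrays at 0 h, with 7 against 3 of the 10 above the floor, 3.63 to 4.20 against 3.25 to 3.66 at 4 h, and 3.14 to 3.28 against 3.22 to 3.37 at 72 h. Of the 2 CD8 markers, Cd8b1 stood above the floor in every group and was lower in KO at 24 h (-0.41) and 72 h (-0.65, limma adjusted p 0.0191 and 0.000356), and the mean of both was 4.29 to 4.57 in KO against 4.81 to 4.85 in WT arrays at 72 h. The mean of 8 stromal markers stayed between 3.34 and 3.67, with KO arrays below WT arrays without overlap at 0 and 72 h, and that of 4 erythroid and platelet markers between 3.03 and 3.49. The part of these markers in the results below was not tested, and in bulk samples fewer cells of a type cannot be told apart from less RNA per cell.

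Most of the imprinted genes were not seen above background in these T cells in either genotype. The floor was set at 3.58, the 95th percentile of the WT means of 1088 olfactory receptor genes, which are not known to be used in T cells. By group means, 7 genes stood above it in all 8 groups (Mcts2, Igf2r, Impact, Kcnq1ot1, Inpp5f, Gnas and Airn), 4 in some groups (Plagl1 in 7, Nnat in 4, Peg12 in 2 and Magel2 in 1) and 18 in none. Among all genes tested, 47.3% stood above the floor in all 8 groups, 57.3% in at least 1 and 42.7% in none. The genes above it in at least 1 group were 9 of the 20 paternally expressed ones, Igf2r alone of the 8 maternally expressed ones, and Gnas. Just inside the floor lay Peg12 in WT cells at 24 h and Plagl1 in KO cells at 0 h, both at 3.58, and just outside it lay Zdbf2 in WT cells at 72 h and Nnat in WT cells at 24 h, both at 3.57. With the 99th percentile of the olfactory receptor genes, the median of all genes, or every array of a group as the requirement, 9 genes passed in place of 11. Probe sets differ in brightness, so the levels of different genes are not set against each other.

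**Figure D1:**
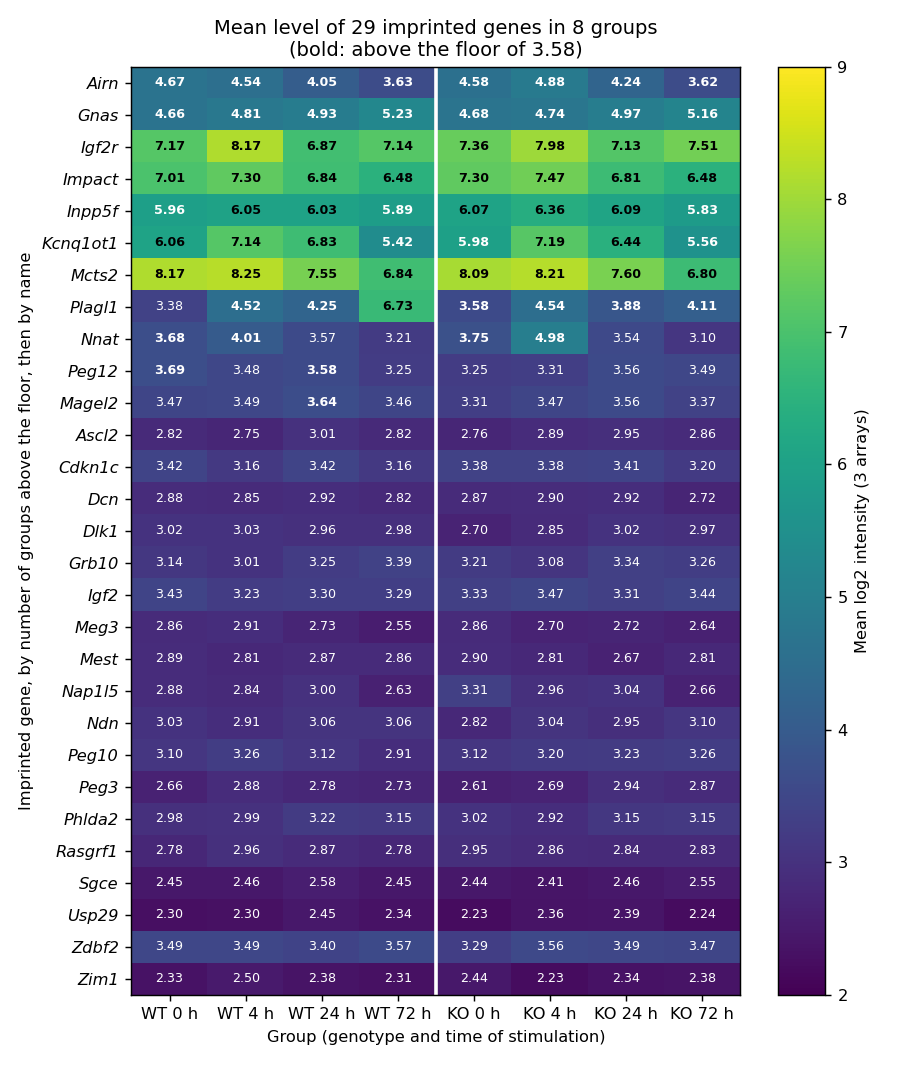
Group mean log2 level (colour scale, 3 arrays a group) of the 29 measured imprinted genes in the 8 groups of genotype and time, with genes ordered by the number of groups above the floor of 3.58 and then by name, and with bold figures for means above it. The 7 genes at the top are above the floor in all 8 groups and the 18 at the bottom in none, in WT and KO alike.

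Loss of TRIM28 was accompanied by few changes among these genes, and by no general rise. Plagl1 was lower in KO cells at 72 h, Nnat was higher at 4 h, and Igf2r was higher at 24 and 72 h, each by limma with Benjamini-Hochberg adjusted p under 0.05 over all 22180 genes. At 0 h, 0 of 29 genes passed, where 2.34% of all genes did, and 5 had an unadjusted p under 0.05. At 4 h, 1 of 29 passed (4.13% of all genes), at 24 h 1 of 29 (11.3%), and at 72 h 2 of 29 (6.33%). Counted over the 4 times, 3 of 29 genes (10.3%) passed at one or more, against 18.7% of all genes tested, so the share in the list was not above the background. All 3 were among the 11 listed genes above the floor in at least 1 group, and of all genes so placed 30.9% passed. The part of the list's many genes at the floor in its low share was not tested. Median KO minus WT changes of the list were -0.01, 0.02, -0.01 and 0.002 at 0, 4, 24 and 72 h, beside medians over all genes of 0.004, 0.003, -0.05 and 0.01. Genes whose 3 KO arrays all lay on one side of the 3 WT arrays numbered 4, 7, 3 and 6 of 29 at the 4 times, where 16.9%, 16.2%, 27.2% and 24.6% of all genes did so. Of the 2 paternally expressed genes that passed, 1 was lower and 1 was higher, and the maternally expressed one was higher.

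**Figure D2:**
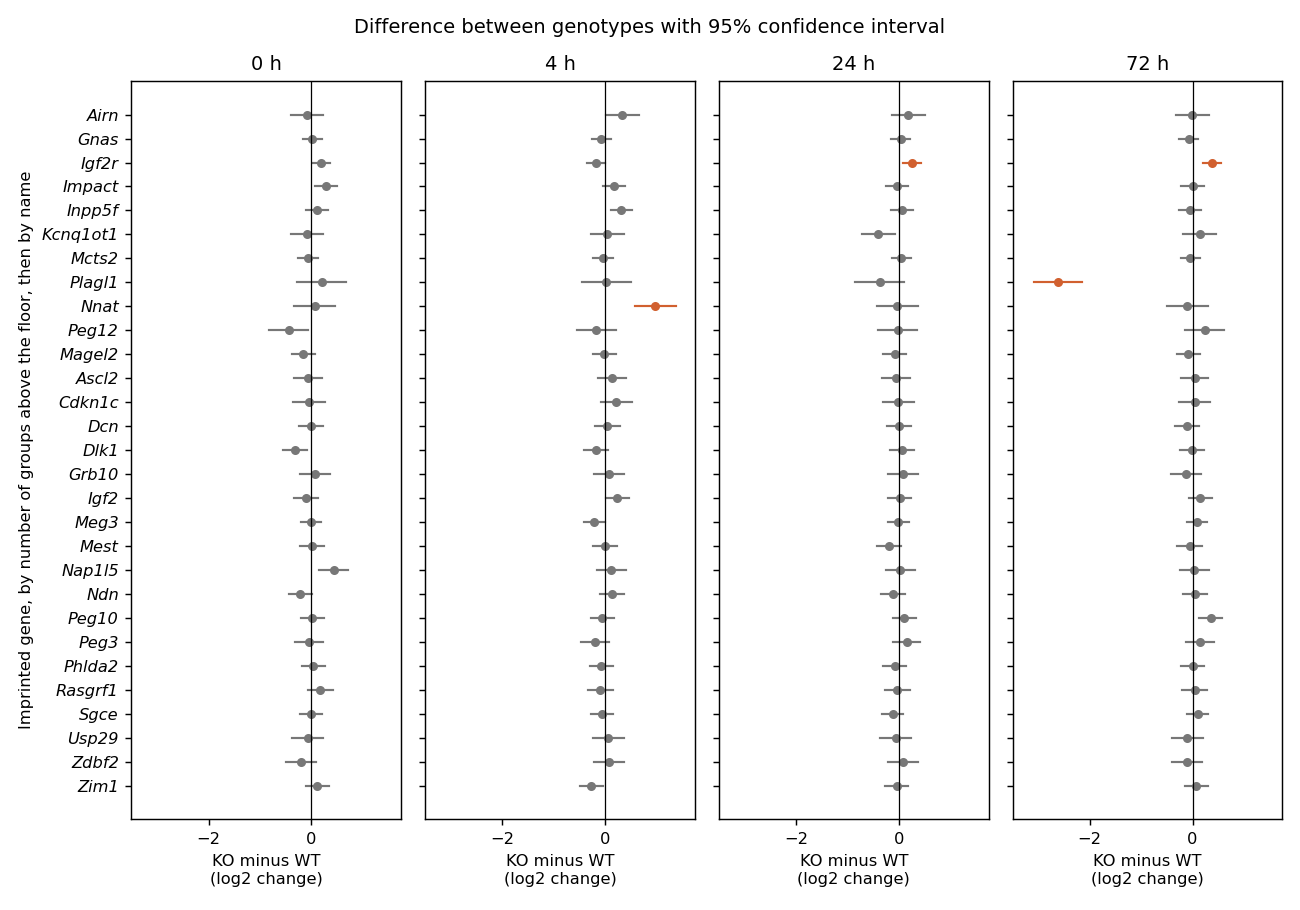
KO minus WT log2 change (points) with 95% confidence interval (lines) of the 29 measured imprinted genes at 0, 4, 24 and 72 h, with orange for an adjusted p under 0.05. The orange points are Nnat at 4 h (0.98), Igf2r at 24 h (0.26) and 72 h (0.37) and Plagl1 at 72 h (-2.62).

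Plagl1, on chromosome 10, encodes a zinc finger transcription factor known to restrain proliferation and to act on other imprinted genes. In WT arrays 1 to 3 its log2 level at 0 h was 3.38, 3.25 and 3.5, followed by 4.52, 4.58 and 4.45 after 4 h. It read 4.34, 4.13 and 4.29 after 24 h and 5.75, 7.19 and 7.25 after 72 h. In KO arrays 1 to 3 it was, in the same order of times, 3.69, 3.48 and 3.57, then 4.30, 4.47 and 4.85, then 3.93, 3.90 and 3.82, and finally 4.16, 4.07 and 4.11. Both genotypes thus stood near the floor before stimulation and above it at 4 h, and at 72 h every WT array was above every KO array. The WT arrays at 72 h were themselves uneven, with array 1 below the other two. The 72 h means were 6.73 ± 0.85 in WT and 4.11 ± 0.04 in KO (SD, n = 3 each), a change of -2.62 (SE 0.23, 95% confidence interval -3.09 to -2.14), or 6.13-fold lower, with a limma adjusted p of 9.11e-09. At 0, 4 and 24 h the changes were 0.20, 0.02 and -0.37 with adjusted p of 0.81, 0.979 and 0.371, so only the 72 h difference passed. At 24 h the arrays of the genotypes did not overlap either, KO being lower.

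In WT cells Plagl1 rose at each stimulated time and most at 72 h, while in KO cells only the rise at 4 h passed in the fit to all arrays. Against 0 h, WT levels at 4, 24 and 72 h were higher by 1.14, 0.87 and 3.35 (limma adjusted p 0.000213, 0.00281 and 2.03e-12), the last being 10.2-fold. KO levels rose by 0.96 at 4 h (adjusted p 0.0015), while the changes of 0.30 at 24 h and 0.53 at 72 h did not pass (adjusted p 0.37 and 0.069). Without the arrays numbered 3 the 4 h rise in KO was 0.80 and no longer passed (adjusted p 0.051). The 72 h change in KO did pass with the genes under the 40th percentile left out (adjusted p 0.0476) or with only the groups compared (0.00212). The difference between genotypes in the 72 h response was itself tested and was -2.82 (SE 0.33, adjusted p 2.28e-06), the only interaction with 0 h that passed among the 29 genes, where 3.91% of all genes passed. At 4 and 24 h no gene of the list passed the interaction by limma (0.726% and 5.87% of all genes did), and 5 and 2 had an unadjusted p under 0.05. Against 4 and 24 h in place of 0 h, comparisons added after the values were seen, the 72 h difference was lower by -2.64 and -2.25 (adjusted p 4.98e-06 and 4.59e-05), and 5.29% and 8.46% of all genes passed these. Averaged over the 4 times Plagl1 was lower in KO by -0.69 (adjusted p 0.000147), whereas without the 72 h arrays the average was -0.05 (adjusted p 0.885).

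Plagl1 also has a second probe set, which read 1.99 to 2.42 in all groups, under the floor, with a 72 h change of -0.15 (adjusted p 0.703), so the probe sets disagree. Using the mean of both, the 72 h change was -1.39 (adjusted p 1.58e-06), and without the arrays numbered 3 it was -2.35 (adjusted p 6.62e-05). Leaving out the low WT array 1 gave -3.11. At 72 h the mean of the B cell markers was 3.51 to 4.05 in KO against 3.33 to 3.47 in WT arrays, none of them passing singly. The CD8 marker Cd8b1 (-0.65), the myeloid marker Cd68 (-0.58) and the stromal marker Lum (-0.43) were lower in KO at that time (limma adjusted p 0.000356, 0.000488 and 0.00573), and the stromal mean was 3.39 to 3.44 against 3.48 to 3.67. The part of other cells, or of CD8 cells, in the Plagl1 values was not tested.

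Nnat, on chromosome 2 within an intron of Blcap, encodes neuronatin, a small proteolipid of the endoplasmic reticulum membrane best known from brain and pancreatic beta cells. Its log2 level at 0 h was 3.55, 4.0 and 3.51 in WT and 3.84, 3.78 and 3.63 in KO arrays. At 4 h it was 3.67, 4.25 and 4.09 in WT and 4.75, 5.04 and 5.16 in KO arrays. At 24 h it was 3.23, 3.68 and 3.8 against 3.8, 3.56 and 3.26, and at 72 h 3.05, 3.34 and 3.23 against 3.55, 2.95 and 2.79. All KO arrays exceeded all WT arrays at 4 h, and the genotypes overlapped at the other times, when group means lay near the floor or under it. The 4 h means were 4.01 ± 0.30 in WT and 4.98 ± 0.21 in KO (SD, n = 3 each), a change of 0.98 (SE 0.19, 95% confidence interval 0.58 to 1.38), or 1.97-fold, with a limma adjusted p of 0.00245. At 0, 24 and 72 h the changes were 0.06, -0.03 and -0.11 (adjusted p 0.947, 0.953 and 0.923).

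In KO cells Nnat rose by 1.24 from 0 to 4 h (limma adjusted p 8.38e-06), while the WT change was 0.32 (adjusted p 0.225). The difference between those responses, 0.92, did not pass (adjusted p 0.145). Between the stimulated times the Nnat KO minus WT change was lower at 24 h than at 4 h by -1.01 (SE 0.27, adjusted p 0.0486) and lower at 72 h than at 4 h by -1.09 (adjusted p 0.0151), in comparisons that were likewise added later and that 2.23% and 5.29% of all genes passed. Both were lost without the arrays numbered 3 (-0.71 and -0.87, adjusted p 0.321 and 0.233) and with the mean of the Nnat probe sets (-0.50 each, adjusted p 0.148 and 0.125). The first was lost in further settings too, among them a fit to only the groups compared (adjusted p 0.089), and the second without WT array 1 of 4 h (-0.92, 0.0537) or KO array 3 of 72 h (-0.93, 0.0603). A second Nnat probe set read 3.29 to 3.52 in all groups, with a 4 h change of -0.02 (adjusted p 0.979), and the mean of both gave 0.48 (adjusted p 0.0281). Without the arrays numbered 3 the change was 0.93 (adjusted p 0.0446). At 4 h the myeloid markers averaged 3.63 to 4.20 in KO and 3.25 to 3.66 in WT arrays, with 6 against 2 of 10 above the floor. The B cell markers averaged 3.8 to 4.21 against 3.37 to 3.93, and the part of either cell type in the Nnat values was not tested.

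Igf2r, on chromosome 17 and expressed from the maternal copy, encodes the receptor that sorts mannose-6-phosphate tagged lysosomal enzymes and clears the growth factor IGF2. At 0 h its log2 level was 7.21, 7.17 and 7.11 in WT and 7.34, 7.40 and 7.34 in KO arrays, and at 4 h 8.21, 8.2 and 8.09 against 7.85, 8.07 and 8.02. At 24 h it was 6.76, 6.89 and 6.95 in WT and 7.11, 7.08 and 7.19 in KO arrays, and at 72 h 7.11, 7.28 and 7.04 against 7.39, 7.66 and 7.48. The arrays of the genotypes did not overlap at any time, with KO above WT at 0, 24 and 72 h and below it at 4 h. The changes were 0.20 at 0 h (limma adjusted p 0.316), -0.18 at 4 h (0.278), 0.26 at 24 h (SE 0.08, 95% confidence interval 0.08 to 0.43, adjusted p 0.0475) and 0.37 at 72 h (interval 0.20 to 0.55, adjusted p 0.0051). These are 1.2-fold and 1.29-fold differences at 24 and 72 h. Averaged over the 4 times Igf2r was higher in KO by 0.16 (adjusted p 0.013), and Plagl1 and Igf2r were the 2 of 29 genes that passed this average, where 9.8% of all genes passed. Without the 72 h arrays the Igf2r average was 0.09 (adjusted p 0.3). Without the arrays numbered 3 it was 0.14 and no longer passed (adjusted p 0.204).

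Stimulation raised Igf2r by 1.0 at 4 h in WT cells and by 0.62 in KO cells (limma adjusted p 1.72e-10 and 9.55e-07). At 24 h it was below its 0 h level, by -0.30 in WT and -0.23 in KO (adjusted p 0.00534 and 0.0313), and at 72 h the changes of -0.02 and 0.15 did not pass. The 24 h decrease in KO no longer passed without KO array 1, 2 or 3 of 0 h, without KO array 1 or 2 of 24 h, or without the arrays numbered 3 (-0.28 to -0.21, adjusted p 0.0512 to 0.109). The KO minus WT change was higher at 24 h than at 4 h by 0.44 (SE 0.12, adjusted p 0.0486) and higher at 72 h than at 4 h by 0.56 (adjusted p 0.00391), again in comparisons added after the values were seen. Without the arrays numbered 3 neither passed (0.51 and 0.58, adjusted p 0.137 and 0.0688), and the first was lost in further settings too, among them the omission of single arrays (adjusted p up to 0.13) and a fit to only the groups compared (0.12). The 24 h difference between genotypes no longer passed in 7 of 14 other settings, with adjusted p up to 0.211, among them the omission of WT array 1 (0.20) or 2 (0.27), of KO array 1 (0.26), 2 (0.28) or 3 (0.23), of the arrays numbered 3 (0.27, adjusted p 0.167), and a fit to the 24 h groups alone (adjusted p 0.112). At 72 h it no longer passed without KO array 2 (0.30, adjusted p 0.0567) or without the arrays numbered 3 (0.34, adjusted p 0.158). B cell markers averaged 3.79 to 4.30 in KO and 3.51 to 3.71 in WT arrays at 24 h, and their part in the Igf2r values was not tested.

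**Figure D3:**
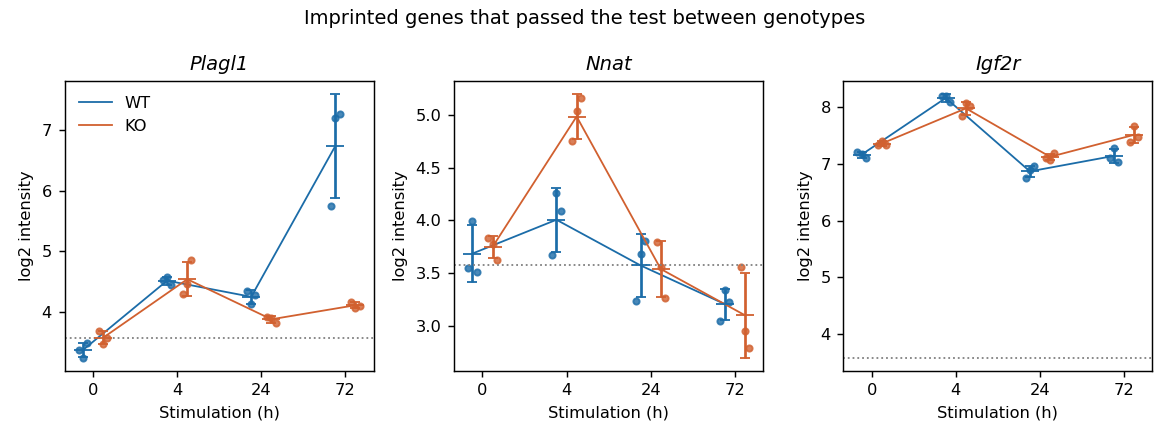
Log2 level of Plagl1, Nnat and Igf2r in each array (points) with group mean and SD (n = 3) for WT and KO at 0, 4, 24 and 72 h, with the floor of 3.58 as a dotted line. Plagl1 reaches 5.75 to 7.25 in WT arrays at 72 h and stays at 4.07 to 4.16 in KO arrays, Nnat is higher in KO at 4 h, and Igf2r peaks at 4 h in both genotypes.

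Airn is the long noncoding RNA of the paternal copy that runs antisense through Igf2r and is known to silence it there. Its log2 levels were 4.60, 4.60 and 4.80 in WT and 4.89, 4.55 and 4.31 in KO arrays at 0 h, and 4.55, 4.50 and 4.59 against 4.46, 4.99 and 5.18 at 4 h. They were 4.03, 4.16 and 3.97 against 4.22, 4.14 and 4.37 at 24 h, and 3.58, 3.66 and 3.64 against 3.85, 3.42 and 3.59 at 72 h. The genotypes overlapped at every time, and levels fell toward the floor over stimulation. The KO minus WT changes were -0.08, 0.33, 0.19 and 0.00, none of which passed (smallest limma adjusted p 0.291, at 4 h), although without KO array 1 the 4 h change was 0.54 (adjusted p 0.0473). Between 0 and 72 h Airn fell by 1.04 in WT and by 0.96 in KO (adjusted p 2.64e-06 and 9.16e-06), and at 24 h the WT decrease of 0.61 passed (adjusted p 0.00199) while the KO change of -0.34 did not (0.0995). That KO change passed without KO array 3 of 0 h (-0.48, adjusted p 0.0274) or without the arrays numbered 3 (-0.54, 0.037). Whether the probes of Airn and Igf2r read 1 strand only was not known.

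Kcnq1ot1 is the corresponding paternal noncoding RNA on chromosome 7, known to silence Cdkn1c, Phlda2, Ascl2 and other genes of its cluster. Its log2 levels were 5.93, 6.20 and 6.06 in WT and 6.37, 5.81 and 5.77 in KO arrays at 0 h, and 7.03, 7.35 and 7.04 against 6.96, 7.09 and 7.51 at 4 h. At 24 h they were 6.85, 6.99 and 6.65 against 6.50, 6.23 and 6.58, and at 72 h 5.50, 5.51 and 5.24 against 5.72, 5.48 and 5.47. The genotypes overlapped at 0, 4 and 72 h, and at 24 h every KO array was below every WT array. That 24 h change was -0.40 (95% confidence interval -0.71 to -0.08) and did not pass (limma adjusted p 0.103). Stimulation changed Kcnq1ot1 in both genotypes, by 1.08 at 4 h, 0.77 at 24 h and -0.65 at 72 h in WT (adjusted p 1.73e-06, 0.000161 and 0.00104) and by 1.2, 0.45 and -0.42 in KO (adjusted p 3.77e-07, 0.022 and 0.029). The 24 h rise in KO was lost without the arrays numbered 3 (0.28, adjusted p 0.289), without KO array 2 or 3 of 0 h (0.37 and 0.35) or without KO array 1 or 3 of 24 h (0.42 and 0.38). The 72 h decrease in KO was lost without KO array 1 of 0 h (-0.23, adjusted p 0.271), without KO array 2 or 3 of 72 h (-0.38 each) or with only the groups compared (adjusted p 0.05). Cdkn1c, the cell cycle inhibitor p57, and Phlda2 and Ascl2 stayed under the floor in all 8 groups.

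Mcts2 is a paternally expressed retrogene inside an intron of H13, a near copy of Mcts1, so its probe set may read both genes and its values are uncertain. Its log2 levels at 0 h were 8.16, 8.22 and 8.12 in WT and 8.07, 8.10 and 8.11 in KO arrays, and at 72 h 6.80, 6.95 and 6.78 against 6.96, 6.62 and 6.84. Group means at 4 and 24 h were 8.25 and 7.55 in WT and 8.21 and 7.60 in KO. Mcts2 fell with stimulation in both genotypes, by 1.32 at 72 h in WT and by 1.29 in KO (limma adjusted p 3.33e-12 and 5.95e-12), while the KO minus WT changes were between -0.07 and 0.05.

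Impact, a paternally expressed regulator of the GCN2 stress kinase, read 6.95, 7.09 and 6.99 in WT and 7.59, 7.14 and 7.16 in KO arrays at 0 h. At 72 h it read 6.52, 6.62 and 6.30 against 6.56, 6.46 and 6.43. The 0 h arrays did not overlap, KO being higher, but the change of 0.29 (95% confidence interval 0.07 to 0.50) did not pass (limma adjusted p 0.202). At 0 h the myeloid markers averaged 3.85 to 4.53 in KO and 3.52 to 3.71 in WT arrays, with Lyz2, S100a8, S100a9 and Tyrobp higher in KO by 1.39, 2.26, 1.39 and 0.47 (limma adjusted p 0.00404, 0.00414, 0.0195 and 0.0458). The B cell markers averaged 4.18 to 4.97 in KO and 3.67 to 4.52 in WT arrays at 0 h, with Cd79b and Cd22 higher in KO by 0.95 and 0.99. The part of either cell type in the 0 h differences of Impact and of Nap1l5, given further on, was not tested. Against 0 h, Impact was lower at 72 h by -0.53 in WT and -0.81 in KO (adjusted p 0.000147 and 2.97e-07).

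Inpp5f encodes a phosphoinositide phosphatase, and it is a shorter variant of the gene that is imprinted, which the probe set does not tell from the whole gene. At 4 h it read 6.18, 5.97 and 5.99 in WT and 6.29, 6.37 and 6.43 in KO arrays. These did not overlap, and the change of 0.32 (95% confidence interval 0.11 to 0.53) did not pass (limma adjusted p 0.0831). In KO cells the rise of 0.29 from 0 to 4 h passed (adjusted p 0.0272), a call lost without KO array 1 or 2 of 0 h (0.24 and 0.22), without KO array 2 or 3 of 4 h (0.29 and 0.26) or with only the groups compared (adjusted p 0.0646 to 0.161).

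Gnas, which encodes the stimulatory G protein alpha subunit and several transcripts of opposite parental origin, had group means of 4.66, 4.81, 4.93 and 5.23 in WT and 4.68, 4.74, 4.97 and 5.16 in KO cells at 0, 4, 24 and 72 h. It rose by 0.57 in WT and 0.48 in KO at 72 h (limma adjusted p 4.06e-06 and 4.94e-05), and no KO minus WT change passed. The smaller rises at 24 h also passed in both genotypes and were lost without the arrays numbered 3 (0.28 in WT and 0.29 in KO, adjusted p 0.106 and 0.111). The WT call at 24 h was also lost with a second quantile normalization, with only the groups compared, or without WT array 2 of 24 h. A probe set shared by Gnas and Gnasas1, the antisense RNA of the locus, had group means of 2.69, 2.69, 3.45 and 4.37 in WT and 2.67, 2.90, 3.21 and 4.05 in KO cells. Among the 1814 probe sets that list several genes it rose by 1.68 in WT and 1.39 in KO at 72 h (limma adjusted p 1.35e-07 and 2.73e-06), and none of its KO minus WT changes passed (-0.32 to 0.21, smallest adjusted p 0.558). Which of the genes it read was not known.

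**Figure D4:**
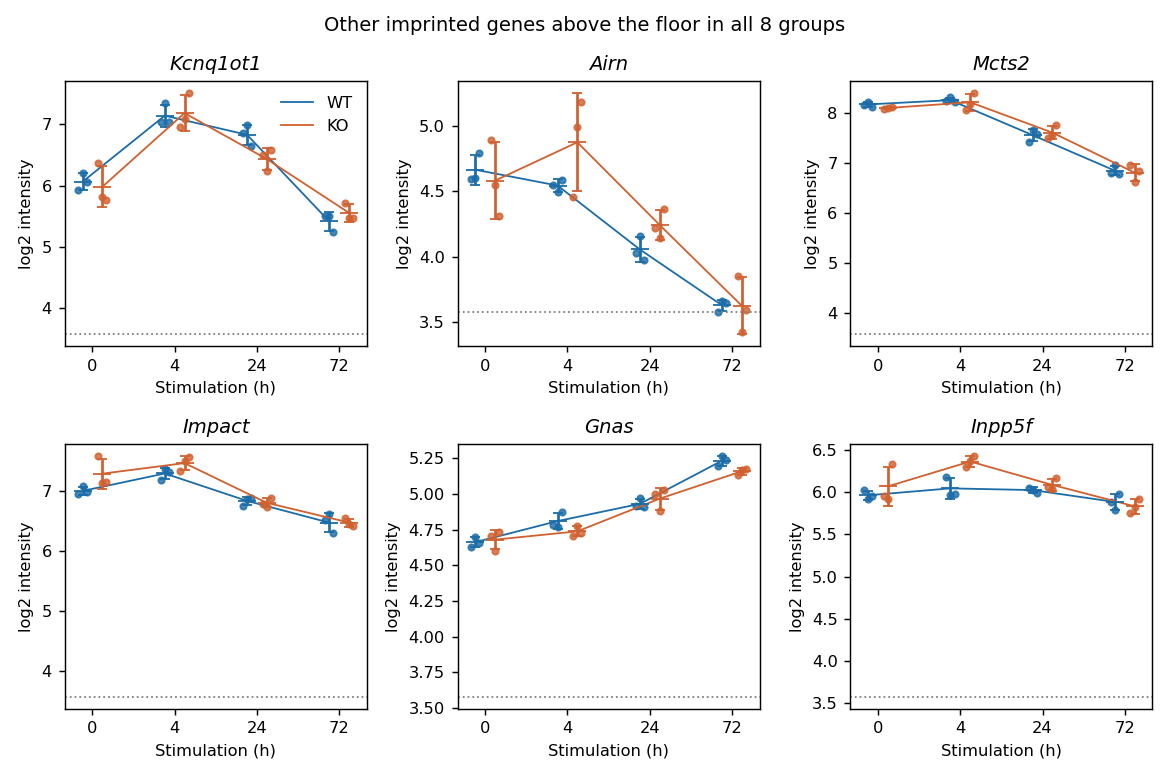
Log2 level of Kcnq1ot1, Airn, Mcts2, Impact, Gnas and Inpp5f in each array (points) with group means (lines) for WT and KO at 0, 4, 24 and 72 h. Kcnq1ot1 peaks at 4 h, Mcts2 and Airn are lowest at 72 h and Gnas is highest at 72 h in both genotypes, and WT and KO points lie together at most times.

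Over the whole list, stimulation of WT cells changed 4 genes at 4 h, all higher (34.7% of all genes changed in either direction), 6 at 24 h, 3 of them higher (39.7%), and 7 at 72 h, 2 of them higher (40.5%; limma adjusted p under 0.05). In KO cells it changed 5 genes at 4 h, all higher (31.1% of all genes), 6 at 24 h, 3 of them higher (34%), and 8 at 72 h, 2 of them higher (39.7%). Comparisons at different times within a genotype share the same 0 h arrays. Part of these calls were at floor levels: Meg3, a maternal noncoding RNA, was lower at 72 h by -0.31 in WT (adjusted p 0.0113), and in KO cells Nap1l5 was lower by -0.65 (0.000341) and Ndn, a MAGE family protein gene, higher by 0.28 (0.0436) at 72 h, and Dlk1, a Notch-related membrane protein gene, higher by 0.32 at 24 h (0.0291). Of these, Meg3 lost its call without WT array 2 of 0 h or of 72 h (adjusted p 0.0571 and 0.0765). Ndn and Dlk1 lost theirs with only the groups compared (0.118 and 0.0752) and when single arrays were left out (up to 0.264 and 0.207), and Dlk1 also without the arrays numbered 3 (0.30, adjusted p 0.153).

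The 18 genes that stood above the floor in no group were Igf2, Peg3, Mest, Ndn, Dlk1, Peg10, Sgce, Nap1l5, Rasgrf1, Usp29 and Zdbf2, which are paternally expressed, and Zim1, Grb10, Meg3, Cdkn1c, Dcn, Phlda2 and Ascl2, which are maternally expressed. They include much studied growth regulators: Igf2 is a fetal growth factor, Grb10 an adaptor that dampens insulin signalling, and Peg3 a zinc finger protein. Igf2 read between 3.13 and 3.58 over the 24 arrays, Mest between 2.61 and 3.11, and Peg3 between 2.42 and 3.15. Grb10 reached 3.64 and Cdkn1c 3.75 in their highest array, just over the floor. Over the 18 genes and 4 times, KO minus WT changes ran from -0.32 to 0.43 with 95% limits from -0.55 to 0.72, and by limma none of the 72 values passed, 6 of them having an unadjusted p under 0.05. Values at the floor bound a change poorly, so these limits hold for the probe signal and not for the RNA.

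Chosen by the 4 WT groups alone, the listed genes at or under the floor were these same 18, and 0 of them stood above it in a KO group on their own probe sets. Among the 9687 genes of all kinds at or under the floor in the 4 WT groups, 2.31% stood above it in at least 1 KO group, 1.17% were higher in KO by adjusted p, and 0.588% did both. With shares this small, 18 genes are too few to show a difference from them, and none was tested. The value nearest to passing was that of Peg10, a retrotransposon-derived gene, at 72 h: it read 2.98, 2.84 and 2.90 in WT and 3.11, 3.52 and 3.15 in KO arrays. These did not overlap and all lay under the floor, with a change of 0.35 (SE 0.11, limma adjusted p 0.0508), which passed in 5 other settings (adjusted p from 0.0374). The setting without genes under the 40th percentile left Peg10 out. At 0 h, Nap1l5 read 3.02, 2.89 and 2.74 in WT and 3.57, 3.31 and 3.06 in KO arrays, a change of 0.43 (adjusted p 0.12) that passed without KO array 3 (0.56, adjusted p 0.0472). The Dlk1 change at 0 h was -0.32 (adjusted p 0.183), and -0.46 without KO array 2 (adjusted p 0.026). Zim1 at 4 h passed without WT array 2 (-0.38, adjusted p 0.0474).

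Peg12 and Magel2, neighbours of Ndn in the cluster tied to Prader-Willi syndrome in people, hovered at the floor. Peg12 read 3.52, 3.31 and 4.24 in WT and 3.17, 3.52 and 3.04 in KO arrays at 0 h. WT array 3 stood apart there, the genotypes overlapped, and the change was -0.45 (limma adjusted p 0.285). Magel2 ranged from 3.18 to 3.77 over the 24 arrays.

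Some probe sets are shared by several genes and were tested apart, over all 1814 such sets. For H19 and Snrpn they were the only ones. The probe set of H19, a maternal noncoding RNA, and of Mir675, which lies within it, had group means between 2.75 and 2.98, under the floor, and none of its KO minus WT changes (-0.11 to 0.01) passed. The Snrpn and Snurf probe sets had group means of 2.72 to 3.06 and of 3.04 to 3.32, and none of their changes passed (largest 0.30 at 0 h, limma adjusted p 0.348). Peg3 and Peg3os, its antisense RNA, shared a set that read 3.42, 3.29, 3.49 and 3.31 in WT and 3.6, 3.45, 3.28 and 3.34 in KO at the 4 times, so that only the KO mean at 0 h was just over the floor. A set shared by Meg3 and Mir1906 read 3.77, 3.47, 3.55 and 3.47 in WT and 3.64, 3.6, 3.71 and 3.28 in KO, above the floor in 1 WT and 3 KO groups. A set shared by Meg3 and Mir770 and another shared by Usp29 and Zim3 stayed under the floor in all 8 groups. No KO minus WT change of these 4 sets passed (-0.23 to 0.18, smallest limma adjusted p 0.27).

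The factors known to guard imprints were measured as a list of 28 genes, 24 of them above the floor in at least 1 group. Of the 28, 12 (42.9%) passed in KO against WT at one or more times, where 18.7% of all genes did, and no test of that difference was made. Of genes above the floor in at least 1 group 30.9% passed, but the 28 included 4 above it in no group. At 0, 4, 24 and 72 h the numbers higher in KO were 0, 1, 2 and 4 and the numbers lower were 1, 0, 4 and 3, with list medians of -0.001, 0.08, -0.06 and 0.08. Setdb1, the histone H3 lysine methyltransferase that works with TRIM28, had the largest change: WT means were 7.56, 7.87, 8.23 and 8.01 and KO means 7.68, 8.16, 8.95 and 9.43 at 0, 4, 24 and 72 h. The differences were 0.12, 0.29, 0.72 and 1.43 (limma adjusted p 0.478, 0.00939, 2.95e-08 and 2.66e-14), the last being 2.69-fold, and the interaction between 72 and 0 h was 1.31 (adjusted p 4.59e-10). The 4 h value no longer passed without WT array 1 (0.23, adjusted p 0.084), without the arrays numbered 3 (adjusted p 0.12) or with only the 4 h groups (adjusted p 0.197).

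Zfp445, the KRAB zinc finger gene of imprint protection, was higher in KO at 72 h (8.57 against 7.92, change 0.65, limma adjusted p 7.38e-06). Its partner in that role, Zfp57, had group means of 3.03 to 3.43, under the floor in all 8 groups, and no change of it passed. Tet1, a DNA demethylase, was lower in KO at 0 h (5.70 against 6.52, change -0.82, adjusted p 0.00584), a call lost without KO array 1 (-0.72, adjusted p 0.0531) or without the arrays numbered 3 (adjusted p 0.0791). Daxx, a histone H3.3 chaperone, was lower at 72 h by -0.65 (adjusted p 2.63e-05), and Eed, a Polycomb subunit, by -0.27 at 24 h and -0.45 at 72 h (adjusted p 0.0225 and 0.000217). Dnmt3a, a de novo DNA methyltransferase, was lower at 24 h by -0.40 (adjusted p 0.0149), Tet2 lower at 72 h by -0.41 (0.0314) and Arid4a higher at 24 h by 0.35 (0.0494). The calls of Tet2, Dnmt3a and Arid4a and the 24 h call of Eed were lost when single arrays were left out, at adjusted p up to 0.17, 0.139, 0.364 and 0.156.

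A further list of 53 imprinted genes, of which 46 were measured and 22 stood above the floor in at least 1 group, was read in the same way. In KO against WT 6 of 46 (13%) passed at one or more times, against 18.7% of all genes. Of genes above the floor in at least 1 group 30.9% passed, but that is no like share, since 24 of the 46 stood above it in no group. The list medians were -0.01, 0.004, -0.03 and 0.006 at the 4 times. Sfmbt2, a Polycomb-like gene expressed from the paternal copy, was lower in KO at 24 h (5.02 against 5.67, change -0.65, limma adjusted p 0.00038). Tspan32, a tetraspanin gene, was higher at 24 h by 0.45 and Dhcr7, of cholesterol synthesis, higher at 72 h by 0.49 (adjusted p 0.00474 and 0.00623). Copg2, a coat protein gene, was lower at 72 h by -0.43 (adjusted p 0.00657), and Atp10a, a phospholipid transporter gene, lower at 24 h by -0.33 (0.0222). Ins2, at floor levels, was lower at 4 h by -0.61 (0.0275). Without the arrays numbered 3 none of these passed except Sfmbt2. Of the host genes of imprinted retrogenes 3 of 4 were measured, and Herc3, which holds Nap1l5, was higher in KO at 4 h by 0.38 (adjusted p 0.0169), a call lost without the arrays numbered 3 (adjusted p 0.0829) and without single arrays.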

How the data were processed

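Per the submitters' processing notes, the authors processed the arrays with RMA from the oligo package in R 3.1.0 (background correction, quantile normalization and summary per probe set), and the deposited values are on a log2 scale. The array type is Affymetrix, run on a GeneTitan per the labels' protocols, and no detection calls or scan files were used here. Of 41345 probe sets, 25335 were in the platform annotation, 23521 with 1 gene and 1814 with several; 23328 matched RefSeq symbols. The probe set with the highest mean stood for each gene, giving 22180 genes.

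Values were used as deposited. limma 3.58.1 in R 4.3.3 fitted 8 group means to all 24 arrays (eBayes with a trend, 24.8 total degrees of freedom), with two-sided Benjamini-Hochberg adjustment over all genes of each contrast and a threshold of 0.05. The steps were tested on simulated data. Precision is limited by 3 arrays a group. A gene was above the floor where its group mean exceeded the 95th percentile of olfactory receptor genes. Every listed gene may be named. Of 3 lists (imprint guards, other imprinted genes, host genes) those past the threshold between genotypes are named, at most the 8 with the largest change in each. The members, lists, rules and markers were chosen with earlier results of these data known.

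Other settings tried were averaging all probe sets of a gene, omission of genes under the 40th percentile of mean level, a second quantile normalization, robust eBayes, a replicate block, only the groups compared, and omission of single arrays or of all arrays numbered 3. Added after seeing the data were the interactions between stimulated times and an average without 72 h.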

Additional observations from a re-analysis of the deposited data

Results flagged for a closer look

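Effects of genotype differed between times, by a test of the difference itself (limma, Benjamini-Hochberg adjusted), for 3 imprinted genes. For Plagl1 the KO minus WT change at 72 h was lower than at 0 h by -2.82 (SE 0.33, adjusted p 2.28e-06), lower than at 4 h by -2.64 (adjusted p 4.98e-06) and lower than at 24 h by -2.25 (adjusted p 4.59e-05). At 72 h all 3 KO arrays were below all 3 WT arrays. For Igf2r the change was higher at 24 h than at 4 h by 0.44 (adjusted p 0.0486) and higher at 72 h than at 4 h by 0.56 (adjusted p 0.00391), with KO below WT in 3 of 3 arrays at 4 h and above it in 3 of 3 at 24 and 72 h. For Nnat it was lower at 24 h than at 4 h by -1.01 (adjusted p 0.0486) and lower at 72 h than at 4 h by -1.09 (adjusted p 0.0151). Without the arrays numbered 3 the Igf2r and Nnat comparisons no longer passed (adjusted p 0.137 and 0.0688 for Igf2r, 0.321 and 0.233 for Nnat), and with the mean of both Nnat probe sets neither Nnat comparison did (0.148 and 0.125). The Plagl1 comparisons passed in every setting tried. The comparisons between stimulated times were chosen after seeing the data, and those with 4 h share its arrays.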

How the results depend on the processing

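The KO against WT changes of members at single times gave 1564 values under other settings. Of these, 1546 stayed on their side of the threshold, 9 lost the call and 9 gained one. Direction was compared only for changes that passed in the main fit or in the other setting, and 0 of these reversed. The Plagl1 change at 72 h kept its call in all 14 settings (-3.11 to -1.39) and the Nnat change at 4 h in all 14 (0.48 to 1.1), while Igf2r kept it in 7 of 14 at 24 h and 12 of 14 at 72 h. With only the groups compared, 0 genes of the list passed at 24 h in place of 1; the cause was not tested beyond the fewer samples of that fit. When arrays were left out, the number of genes passing in KO against WT was 0 to 1 at 0 h, 1 to 2 at 4 h, 0 to 1 at 24 h, 1 to 3 at 72 h, and 1 to 2 averaged over times. Stimulation calls were 3 to 4, 5 to 7 and 6 to 9 in WT and 4 to 6, 3 to 5 and 6 to 10 in KO at 4, 24 and 72 h, the 3 at 24 h being without KO array 2 of 0 h, where the fit to all arrays gave 6. Interaction calls were 0 at 4 h, 0 to 1 at 24 h (Dlk1 without that same array) and 1 at 72 h. The number of genes above the floor was 9 to 11.

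Same-numbered KO and WT arrays of one time deviated together only weakly (correlations of residuals 0.03 to 0.17, over 0.1 in 6 of 12 pairs), although 24 of 24 arrays correlated best with their own number in the other genotype, a hint from the data and not from the design. Within a genotype, same-numbered arrays of different times had correlations of -0.02 to 0.24, over 0.1 in 20 of 36 pairs. There 23 of 24 arrays correlated best with their own number, while the main fit treated all arrays as independent. With the replicate block as a fixed term Plagl1 changed by -2.62 at 72 h (adjusted p 1.16e-08), Nnat by 0.98 at 4 h (adjusted p 0.00236) and Igf2r by 0.26 at 24 h (adjusted p 0.0397), and Peg10 passed at 72 h (adjusted p 0.0472). Signal near the floor limits what can be said of 18 of the 29 genes.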

Other observations

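Peg13, a paternally expressed noncoding RNA of the wider list of imprinted genes, was singled out after its values were seen. Its group means were 7.14, 5.57, 4.25 and 3.29 in WT and 7.11, 5.90, 4.29 and 3.5 in KO cells at 0, 4, 24 and 72 h, so it went from well above the floor to below it in both genotypes. The 72 h change against 0 h was -3.85 in WT and -3.61 in KO (limma adjusted p 3.91e-16 and 1.64e-15), and no KO minus WT change passed. Cd81, a tetraspanin gene of the Kcnq1ot1 cluster that was chosen in the same way, rose by 2.53 in WT and by 2.08 in KO cells at 72 h. Tspan32 of the same cluster fell by 2.24 in WT and by 2.0 in KO cells at 72 h.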
